A study of Mus musculus with 6 samples.

Results

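The 10 genes described are aldehyde dehydrogenases (Aldh), namely Aldh1a1, Aldh1a3, Aldh1b1, Aldh2, Aldh3a2, Aldh4a1, Aldh6a1, Aldh7a1, Aldh9a1 and Aldh18a1. They are 10 of the 21 Aldh genes with a row in an expression table of 23725 genes. The 10 were chosen by gene name from that table with its values and the knockout to wild-type contrast in view, so their differences are given as a description and without a test of their own. RNA came from mouse colonic epithelial cells enriched on a Percoll gradient and used directly. The knockout group held 3 libraries labelled B6-Cg-Nr3c1-Vil-Cre/ERT2 (Nr3c1IEC-/-), in which Cre under the villin promoter of intestinal epithelium deletes Nr3c1, which encodes the glucocorticoid receptor. The wild-type group held 3 libraries of the same C57BL/6J background. The protocol gives intraperitoneal tamoxifen, which activates this form of Cre, for 5 days in a row, with cells taken at day 7 counted from the first dose. It is given for all samples, and whether the wild-type mice carried the Cre transgene is not stated, so an effect of active Cre and the loss of the receptor cannot be told apart. Neither age nor sex is given, and the labels do not say that each library is a separate animal.

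Most aldehyde dehydrogenases oxidise aldehydes to acids with NAD or NADP, through a catalytic cysteine. Members differ by substrate and compartment. Aldh1a1 and Aldh1a3 are cytosolic and turn retinaldehyde into retinoic acid, a ligand of nuclear receptors that shapes immune and epithelial cells of the gut. Aldh2 and Aldh1b1 are mitochondrial and clear acetaldehyde and other small aldehydes, and Aldh3a2 is a membrane-bound enzyme for long-chain fatty aldehydes. The remaining members serve amino acid metabolism. Aldh4a1 finishes proline breakdown, Aldh18a1 starts proline synthesis, Aldh6a1 works in valine breakdown, Aldh7a1 in lysine breakdown, and Aldh9a1 makes the precursor of carnitine.

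Values are normalized reads, that is, gene counts that the authors divided by a size factor per library. The libraries held 10089313 to 12030844 recovered reads. Epithelial markers were abundant in all of them, with a sum over 10 genes of 323120.4 to 371359.2 in knockout and 306192.0 to 348777.9 in wild-type libraries. Of these, 2 fell (Cdx1 and Cdx2) and 2 rose (Krt20 and Vil1), and Krt8 was the most abundant. Markers said to fall or rise here are those called in a fit over 12837 genes, of which 15.4% were lower and 15.0% higher. Nr3c1 itself was at 144.7, 123.1 and 174.7 in the knockout libraries, against 1119.8, 967.1 and 196.7 in wild type. The libraries are written KO1 to KO3 and WT1 to WT3 from here on. The library labelled wild type 3 (WT3) was thus close to the knockout at the targeted gene, and counts are also given without it. Immune markers (18 genes summed) stood at 3962.5, 1673.1 and 2467.8 in KO1, KO2 and KO3, against 658.1, 964.2 and 1299.6 in WT1, WT2 and WT3. In this list 5 of the 9 tested genes rose and 0 fell, and no marker was at 0 in all 6 libraries. Without Cd14 the sums were 2472.9, 908.5 and 1624.9 in knockout and 474.4, 697.2 and 1024.6 in wild type, which overlap. This and the other sums without a gene leave out the marker of a list whose group means differ most, a choice made after seeing the data. Stromal markers (15 genes) summed to 2655.3, 845.4 and 1274.5 in knockout, against 630.5, 925.0 and 1163.0 in wild type, and 1 of 8 tested rose. Surface colonocyte markers (8 genes) summed to 140423.5, 180997.1 and 123284.9 in knockout, against 250264.8, 274342.6 and 233263.9 in wild type, and 2 of 8 fell (Car1 and Guca2a) and 1 rose (Krt20). Without Car1 the sums overlapped, at 100779.4 to 114399.2 in knockout and 92787.9 to 125112.0 in wild type. Goblet cell markers (7 genes) summed to 49622.8 to 80203.2 in knockout and 84154.5 to 87779.3 in wild type, and 1 fell (Muc2). Without Muc2 they overlapped, at 41439.9 to 70269.0 in knockout and 50896.9 to 66055.0 in wild type. The part of these shifts in the results below was not tested.

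Promoters of the gene pair Aldh1a1 and Aldh1a7 are shown because the neighbours on chromosome 19 were lower together, and Aldh1a7 was the closest in transcript sequence of 5 relatives compared with Aldh1a1. Aldh1a7 is not among the 10 genes. The 250 bases upstream of a start, from RefSeq on GRCm38.p6, are printed 5′ to 3′ on the strand of the gene. Aldh1a1 (plus strand) is from chr19:20601718-20601967, upstream of the second of its starts in the table, and Aldh1a7 (minus strand) from chr19:20727557-20727806. This start of Aldh1a1 was taken because its window shares the longest run with Aldh1a7. Capitals mark the longest run that the pair shares.
Aldh1a1: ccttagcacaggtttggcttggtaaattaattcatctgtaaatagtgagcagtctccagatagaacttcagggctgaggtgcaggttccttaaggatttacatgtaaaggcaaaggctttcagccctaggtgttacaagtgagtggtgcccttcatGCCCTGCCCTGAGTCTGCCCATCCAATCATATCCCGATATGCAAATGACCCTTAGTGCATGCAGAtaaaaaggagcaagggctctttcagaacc
Aldh1a7: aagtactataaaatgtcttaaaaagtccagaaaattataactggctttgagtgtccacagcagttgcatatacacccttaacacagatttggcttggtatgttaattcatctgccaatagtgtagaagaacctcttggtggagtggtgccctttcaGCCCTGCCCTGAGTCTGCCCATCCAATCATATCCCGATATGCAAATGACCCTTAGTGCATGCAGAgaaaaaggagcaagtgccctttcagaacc
The shared run is 65 bases long and lies 94 to 30 bases before the start in both genes. Over the whole alignment 173 of 235 aligned bases, 73.6%, were identical.

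The promoter of Aldh6a1, the member that was lowest in knockout relative to wild type, is shown for its CCAAT boxes. It is taken from chr12:84451025-84451274 (minus strand) of the same build, and capitals mark CCAAT or its reverse complement ATTGG. This start of Aldh6a1 was taken because it has the most boxes, and the window of its other start holds 1.
Aldh6a1: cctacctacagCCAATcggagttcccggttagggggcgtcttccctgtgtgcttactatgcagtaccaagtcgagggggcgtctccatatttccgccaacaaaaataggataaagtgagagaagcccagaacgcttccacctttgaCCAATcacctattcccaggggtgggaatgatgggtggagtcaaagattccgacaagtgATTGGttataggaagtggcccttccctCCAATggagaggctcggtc
It holds 4 boxes, and 0.84% of the 32851 promoter windows in the table hold at least 4. At least 1 box is found in 33.8% of windows and in 6 of the 9 member windows searched. These 9 windows come from 7 members, and the other members were left out of the search. The CCAAT box was picked as a motif after the sequence had been read. The half-site of the glucocorticoid receptor, AGAACA with its reverse complement TGTTCT, is in 16.1% of windows and in 0 of the 9 member windows. The nuclear receptor half-site AGGTCA (or TGACCT) is in 14% of windows and in 1 of the 9, the other start of Aldh6a1. The AP-1 site TGACTCA (or TGAGTCA) is in 4.46% of windows and in 1 of the 9, the other start of Aldh1a1. All were searched on both strands, and no motif contains another. A match describes letters only, and its absence says nothing of factor binding elsewhere.

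Of the 10 members, 5 were past the threshold of the whole-table fit and lower in knockout (Aldh1a1, Aldh1b1, Aldh2, Aldh3a2 and Aldh6a1). Aldh1a3 was past it and higher, and 4 members (Aldh4a1, Aldh7a1, Aldh9a1 and Aldh18a1) were not past it. All 10 passed the filter on low values. The same fit called 15.4% of 12837 tested genes lower and 15.0% higher at a Benjamini-Hochberg adjusted p of at most 0.05, and since the genes were listed with this contrast in view, nothing is read from their count. By library, 6 members had all knockout values below all wild-type values and 1 had all of them above, against 25.5% and 25.2% of tested genes. The groups overlapped for 3 members. Lower transcript in such bulk samples can mean fewer cells of a type or less RNA per cell, and these cannot be told apart. The number of members called lower was 4 without KO1 or KO2, 3 without KO3, 2 without WT1, and 3 without WT2 or WT3. Aldh1a3 was called higher in each of these fits. Over the whole table, 1979 genes were called lower with all 6 libraries. The number was 953 without WT1, 963 without WT2 and 1605 to 1825 when another library was left out. Genes called higher numbered 1931, 970, 997 and 1578 to 1782 in the same order. Counts below that leave out a library are to be read beside these.

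**Figure D1:**
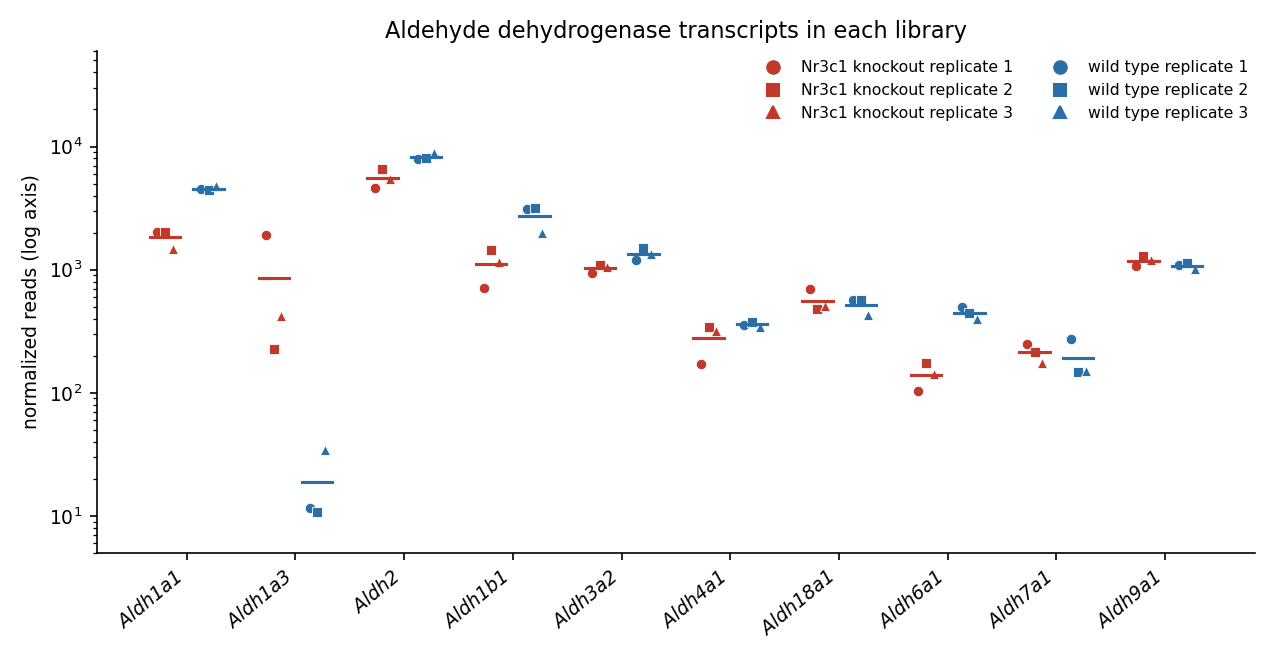
Normalized reads (log axis) of the 10 genes in each of 3 Nr3c1 knockout libraries (red) and 3 wild-type libraries (blue); each symbol is a library and each bar a group mean. Aldh1a3 does not overlap, at 227.6 to 1928.9 in knockout against 10.8 to 34.6 in wild type, while Aldh7a1, Aldh9a1 and Aldh18a1 overlap.

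The retinaldehyde enzymes went opposite ways. Aldh1a1 (Entrez 11668, GRCm38 chromosome 19, 20492583 to 20643463) had 2007.5, 2030.1 and 1478.8 normalized reads in knockout libraries, against 4485.4, 4401.3 and 4764.9 in wild type. Every knockout library was below every wild-type library. The means were 1838.8 ± 312 in knockout and 4550.5 ± 190 in wild type (SD, n = 3 each), a log2 change of -1.32 (SE 0.14). A log2 change is taken on log2(value + 1), knockout minus wild type, throughout. This change lay between -1.42 and -1.17 over 14 other ways of fitting, and was past the threshold in all 14.

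Aldh1a3 (Entrez 56847, chromosome 7, 66390892 to 66427477) had 1928.9, 227.6 and 422.0 in knockout, against 11.7, 10.8 and 34.6 in wild type. The groups did not overlap, but KO1 alone held most of the signal, and the knockout SD (931.2) exceeded the knockout mean (859.5). The log2 change was 5.03 (SE 0.77, 95% interval 3.25 to 6.82), on 60 reads in wild type in all. Without KO1 it was 4.16. The immune marker sum had the same order over the knockout libraries, highest in KO1, then KO3, then KO2, and the stromal sum likewise. The order was the same without Cd14 in the immune sum and without Col3a1 in the stromal sum (1725.5, 698.4 and 1011.0 in KO1, KO2 and KO3). A sum of crypt and cycling cell markers also had this order, at 5890.3, 4182.3 and 4695.1 in KO1, KO2 and KO3. The epithelial, surface colonocyte and goblet sums were instead highest in KO2. In wild type the immune and stromal sums ran WT3, WT2, WT1 from the highest. Aldh1a3 was highest in WT3 too, but WT1 and WT2 were close, at 11.7 and 10.8. The part of these marker shifts in the level of Aldh1a3 was not tested.

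By summed reads per kb of exon, Aldh1a3 made up 15.0%, 1.53% and 3.32% of the 10 members' total in KO1, KO2 and KO3. In wild type it made up 0.0539%, 0.0487% and 0.172%. In KO1 its level per kb of exon (417.8) was close to that of Aldh1a1 (406.6). On the same scale KO2 had 49.3 for Aldh1a3 and 411.2 for Aldh1a1, and KO3 had 91.4 for Aldh1a3 and 299.5 for Aldh1a1.

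The other genes of this branch lie outside the 10. Aldh1a7 (Entrez 26358, chromosome 19, 20692953 to 20727556), the close paralog of Aldh1a1, fell to 245.3, 422.2 and 237.7 in knockout, against 571.0, 581.8 and 729.5 in wild type (log2 change -1.10, SE 0.23, limma adjusted p = 0.0117). Transcripts of the pair were 89.5% identical over 2017 aligned bases, but only 3.06% of the distinct 50-base words of Aldh1a1 and 7.49% of those of Aldh1a7 were shared. How the authors' counting placed shared reads is not given in the sources used here. Aldh1a2, the third retinaldehyde dehydrogenase, was too low to test, with 25.2, 2.1 and 5.7 in knockout and 2.1, 2.9 and 2.7 in wild type. Its single higher value was again in KO1.

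Both mitochondrial acetaldehyde enzymes were lower. Aldh2 (Entrez 11669, chromosome 5, 121566027 to 121593824), the main acetaldehyde dehydrogenase, had 4581.0, 6623.2 and 5496.1 in knockout, against 7945.5, 8129.8 and 8821.2 in wild type. All knockout values were below all wild-type values. The means were 5566.7 ± 1022.9 in knockout and 8298.8 ± 462 in wild type, a log2 change of -0.59 (SE 0.16). Without KO3, WT1, WT2 or WT3, it was -0.59, -0.62, -0.60 and -0.55 and no longer past the threshold.

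Aldh1b1 (Entrez 72535, chromosome 4, 45799022 to 45804608), a related enzyme that marks crypt progenitor cells, had 716.0, 1452.7 and 1143.7 in knockout, against 3089.7, 3180.0 and 1978.1 in wild type. The lowest wild-type value was in WT3, the library that was also low for Nr3c1, yet it lay above every knockout value. The means were 1104.1 ± 370 in knockout and 2749.2 ± 669 in wild type. The log2 change was -1.34 (SE 0.28), and -1.24 and no longer past the threshold without WT1. Of 9 crypt and cycling cell markers, 2 fell (Axin2 and Sox9) and 3 rose (Top2a, Ccnb1 and Birc5). Over all tested genes 15.4% fell and 15.0% rose. The marker sums were 5890.3, 4182.3 and 4695.1 in knockout and 4388.8, 2656.8 and 4321.3 in wild type. The part of these markers in the level of Aldh1b1 was not tested.

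Aldh3a2 (Entrez 11671, chromosome 11, 61223417 to 61267528), the fatty aldehyde dehydrogenase, had the smallest of the called differences. It was at 945.6, 1090.6 and 1058.7 in knockout, against 1207.9, 1492.2 and 1352.4 in wild type, without overlap. The means were 1031.6 ± 76.2 in knockout and 1350.8 ± 142 in wild type. The log2 change was -0.39 (SE 0.12), and leaving out any 1 of the 6 libraries ended the call, at -0.46 to -0.31. Its relatives on chromosome 19, which act on aldehydes from lipids and lie outside the 10, fell as well. Aldh3b1 averaged 97.8 ± 12.6 in knockout and 162 ± 31.8 in wild type (log2 change -0.71, SE 0.20, limma adjusted p = 0.0319). For Aldh3b2 the means were 145 ± 47.9 in knockout and 242 ± 13.6 in wild type (log2 change -0.79, SE 0.24, limma adjusted p = 0.0441). Aldh3b3 averaged 40 ± 10.7 in knockout and 77.5 ± 8.45 in wild type (log2 change -0.97, SE 0.25, limma adjusted p = 0.025). Of the 50-base words of Aldh3b2, 24.2% were shared with Aldh3b3 or Aldh3b1, so reads may be split among these genes. Leaving out WT1 or WT2 ended each of these calls, with limma adjusted p of 0.116 and 0.115 for Aldh3b1, 0.126 and 0.124 for Aldh3b2, and 0.0964 and 0.0729 for Aldh3b3. Without KO3 the limma adjusted p was 0.0826 for Aldh3b1 and 0.0797 for Aldh3b2. Aldh3b2 also lost its call without KO2 (limma adjusted p = 0.064) and without WT3 (limma adjusted p = 0.0776). Aldh3a1 had 2 reads in the knockout libraries together and 0 in wild type.

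Among members of amino acid metabolism, Aldh6a1 was set apart. Aldh6a1 (Entrez 104776, chromosome 12, 84430717 to 84451024), the methylmalonate semialdehyde dehydrogenase of valine breakdown, had 102.7, 173.8 and 142.2 in knockout, against 494.6, 443.0 and 398.0 in wild type. The highest knockout library was less than the lowest wild-type library by more than the range of either group. The means were 140 ± 35.6 in knockout and 445 ± 48.3 in wild type, a log2 change of -1.69 (SE 0.20). It was past the threshold in all 14 other fits, at -1.87 to -1.49. Its exons overlap those of Bbof1 on the other strand over 1078 bases, and these libraries do not keep strand. Bbof1 itself had 13.6, 31.0 and 12.4 in knockout and 45.6, 30.3 and 25.5 in wild type.

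Proline metabolism has a member at each end. Aldh4a1 (Entrez 212647, chromosome 4, 139622871 to 139649691), which turns pyrroline-5-carboxylate into glutamate, had 171.9, 343.5 and 316.0 in knockout, against 357.7, 375.5 and 345.2 in wild type. Only KO1 was clearly low, and KO2 was just under the lowest wild-type library. The means were 277 ± 92.2 in knockout and 359 ± 15.2 in wild type, and the log2 change was -0.44 (SE 0.25) with a 95% interval of -1.02 to 0.14. A predicted gene on the same strand, Gm21969, shares 30.0% of the 50-base words of Aldh4a1, so its count is uncertain. Aldh18a1 (Entrez 56454, chromosome 19, 40550257 to 40588463), which makes pyrroline-5-carboxylate from glutamate, had 691.9, 481.1 and 507.9 in knockout, against 564.7, 562.3 and 431.7 in wild type. The groups overlapped, and the means were 560.3 ± 115 in knockout and 519.5 ± 76.1 in wild type. The log2 change of 0.10 (SE 0.18) had a 95% interval of -0.31 to 0.51. It turned to -0.06 without KO1 and to -0.03 without WT3.

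The lysine and carnitine members showed no separation. Aldh7a1 (Entrez 110695, chromosome 18, 56524722 to 56572991) had 250.5, 213.1 and 175.7 in knockout, against 273.8, 147.7 and 149.4 in wild type, and the highest single value was a wild-type one. The means were 213 ± 37.4 in knockout and 190.3 ± 72.4 in wild type. Its log2 change was 0.21 (SE 0.26), with a 95% interval of -0.40 to 0.82, and its exons overlap Phax on the other strand. Aldh9a1 (Entrez 56752, chromosome 1, 167349963 to 167368530) had 1066.1, 1298.6 and 1193.3 in knockout, against 1083.7, 1127.5 and 1021.8 in wild type. The ranges overlapped, with means of 1186.0 ± 116 in knockout and 1077.6 ± 53.1 in wild type. The 95% interval of its log2 change of 0.13 (SE 0.11), from -0.12 to 0.39, was the narrowest of the 4 members not called.

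**Figure D2:**
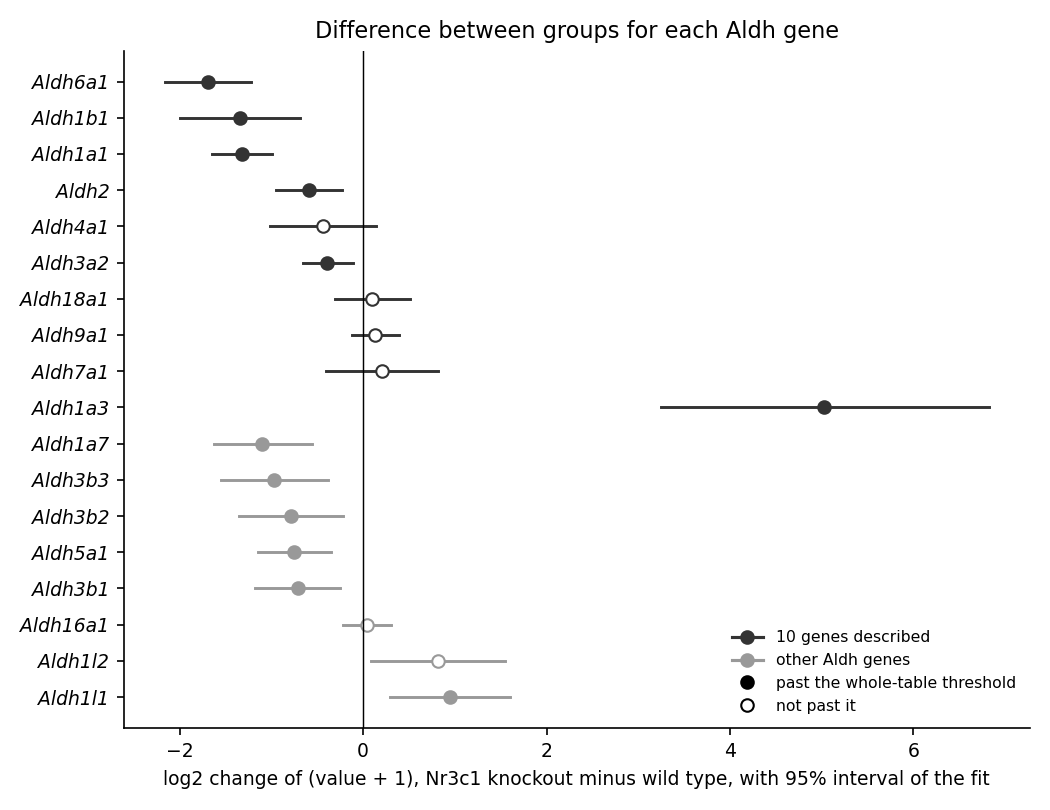
Log2 change (knockout minus wild type) with its 95% interval from the whole-table fit for the 18 Aldh genes tested, the 10 described in black above the other 8 in grey. Filled points were past the whole-table threshold; Aldh1a3 at 5.03 lies far to the right of the rest, which range from -1.69 to 0.95.

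Set per length of exon, Aldh2, Aldh1b1, Aldh1a1 and Aldh9a1 were the 4 highest members in both groups. In knockout, Aldh2 was highest at 1086.0 reads per kb of exon, followed by Aldh1b1 (480), Aldh1a1 (372) and Aldh9a1 (351). Aldh1a3 (186), Aldh3a2 (184) and Aldh18a1 (138) came next, then Aldh4a1 (56.5), Aldh7a1 (41.1) and Aldh6a1 (24.1). The place of Aldh1a3 rests on KO1, since without that library its mean was 70.3, below Aldh3a2 (191.3) and Aldh18a1 (121.4). In wild type, Aldh2 was also first at 1619.0, followed by Aldh1b1 (1196.4), Aldh1a1 (922), Aldh9a1 (318) and Aldh3a2 (240). Aldh18a1 (128), Aldh6a1 (77.0), Aldh4a1 (73.3), Aldh7a1 (36.7) and Aldh1a3 (4.12) came after. Neighbours in this order whose ranges overlapped were Aldh1b1 and Aldh1a1 in both groups. In knockout the overlaps also joined Aldh1a1 to Aldh9a1, Aldh9a1 to Aldh1a3, Aldh1a3 to Aldh3a2, Aldh3a2 to Aldh18a1, and Aldh4a1 to Aldh7a1. In wild type the other overlap was between Aldh6a1 and Aldh4a1. Exon length counts every annotated exon of a gene, so a gene that uses a short form is set too low.

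Summed over the 10 members, the level per kb of exon was 2784.2, 3222.1 and 2749.5 in knockout, against 4690.8, 4782.2 and 4370.9 in wild type. Aldh2 contributed 32.1% to 40.1% of it in knockout and 33.0% to 39.4% in wild type. The share of Aldh1b1 was 11.2% to 19.6% in knockout and 19.7% to 28.9% in wild type, and that of Aldh1a1 10.9% to 14.6% in knockout and 18.6% to 22.1% in wild type. Aldh9a1 made up 11.3% to 12.8% in knockout and 6.83% to 6.97% in wild type, while its own level overlapped between the groups.

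**Figure D3:**
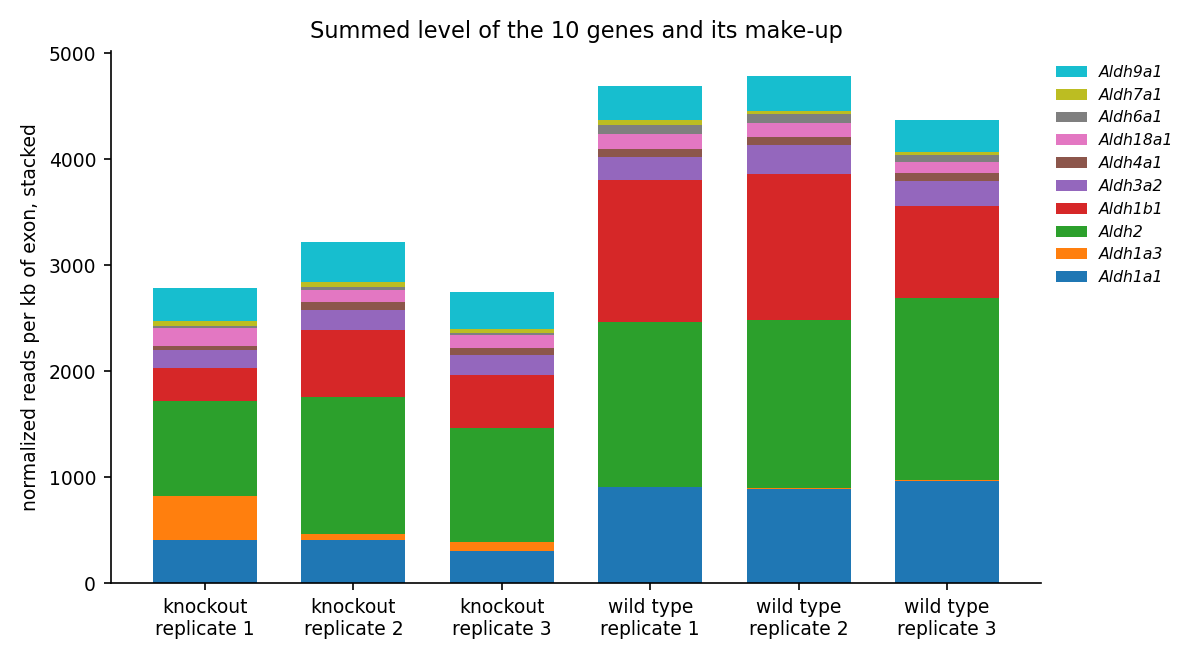
Stacked normalized reads per kb of exon of the 10 genes in each knockout library (left 3 bars) and each wild-type library (right 3 bars). The bars reach 2749.5 to 3222.1 in knockout and 4370.9 to 4782.2 in wild type, with Aldh2, Aldh1b1 and Aldh1a1 as the thickest layers in wild type.

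Of the 11 Aldh genes outside the 10, 8 were tested, of which 5 fell and 1 rose, beside 15.4% and 15.0% of all tested genes. Beside those named above, Aldh5a1 (succinic semialdehyde dehydrogenase of GABA breakdown) fell to 140.5, 192.5 and 183.3 in knockout, against 304.6, 315.8 and 247.7 in wild type (log2 change -0.75, SE 0.17, limma adjusted p = 0.0154). Without WT1 or WT2 its limma adjusted p was 0.0669 and 0.0648. Aldh1l1, a cytosolic folate enzyme, was the gene that rose, at 1265.3, 2078.7 and 2965.2 in knockout, against 1043.3, 892.8 and 1162.1 in wild type (log2 change 0.95, SE 0.28, limma adjusted p = 0.0387). Leaving out any library but KO1 ended that call, with limma adjusted p of 0.0609 to 0.126. Aldh1l2, its mitochondrial counterpart, had means of 35.3 ± 12.4 in knockout and 18.9 ± 2.34 in wild type (limma adjusted p = 0.0845, and 0.0445 without KO1). Aldh16a1 averaged 1156.2 ± 123 in knockout and 1121.8 ± 68.3 in wild type (limma adjusted p = 0.806). Aldh8a1 had 2 reads in knockout and 0 in wild type. The number that fell was 3 without KO3, 1 without WT1 and 1 without WT2. It was 5 without KO1, and 4 without KO2 or WT3. The number that rose was 2 without KO1 and 0 without any other library. Over all tested genes the number called lower also dropped, from 1979 to 953 without WT1 and 963 without WT2. Overlapping genes share 13.7% of the 50-base words of Aldh5a1 and 10% of those of Aldh1l1, so these counts are uncertain. Other genes share 13.6% of those of Aldh1l2.

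Genes that feed or use retinaldehyde moved both ways. Of 34 genes of retinoid uptake, storage, turnover and signalling, 23 were tested, of which 7 fell, 4 rose and 12 were not past the threshold, beside 15.4% lower and 15.0% higher over all tested genes. The median log2 change was -0.24. This list and the pathway lists below were chosen with earlier results of these data known, so their counts are a description. Lrat, which stores retinol as esters, fell to 3.1, 12.4 and 8.6 in knockout, against 168.8, 182.9 and 141.2 in wild type (log2 change -4.34, SE 0.42, limma adjusted p = 0.000814). The groups did not overlap.

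Dhrs9, a retinol dehydrogenase, rose to 1869.1, 1150.6 and 1234.4 in knockout, against 131.6, 156.5 and 276.9 in wild type (log2 change 2.95, SE 0.30, limma adjusted p = 0.000919). Dhrs3, which reduces retinaldehyde back to retinol, fell to 167.7, 130.4 and 171.8 in knockout, against 461.7, 529.0 and 398.0 in wild type (log2 change -1.56, SE 0.17, limma adjusted p = 0.00109). Further genes were chosen after their values were seen. Rdh10, the main retinol dehydrogenase of development, rose to 736 ± 264 in knockout, against 263 ± 64.4 in wild type (limma adjusted p = 0.0101). Bco2, a carotenoid-cleaving enzyme, averaged 48.5 ± 21.3 in knockout and 167 ± 15.8 in wild type (limma adjusted p = 0.00781). For Isx, a repressor of intestinal carotenoid uptake, the means were 591 ± 110 in knockout and 1078.8 ± 179 in wild type (limma adjusted p = 0.00981). Rarg, a retinoic acid receptor, fell to 94.6 ± 3.13 in knockout, against 176 ± 31.2 in wild type (limma adjusted p = 0.00987). Rxra, its dimer partner, fell to 1017.0 ± 106 in knockout, against 1469.3 ± 215 in wild type (limma adjusted p = 0.0262). Leaving out any 1 library kept the counts of this list at 5 to 7 lower and 3 to 5 higher, with 7 and 3 in the fit that omits WT3.

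**Figure D4:**
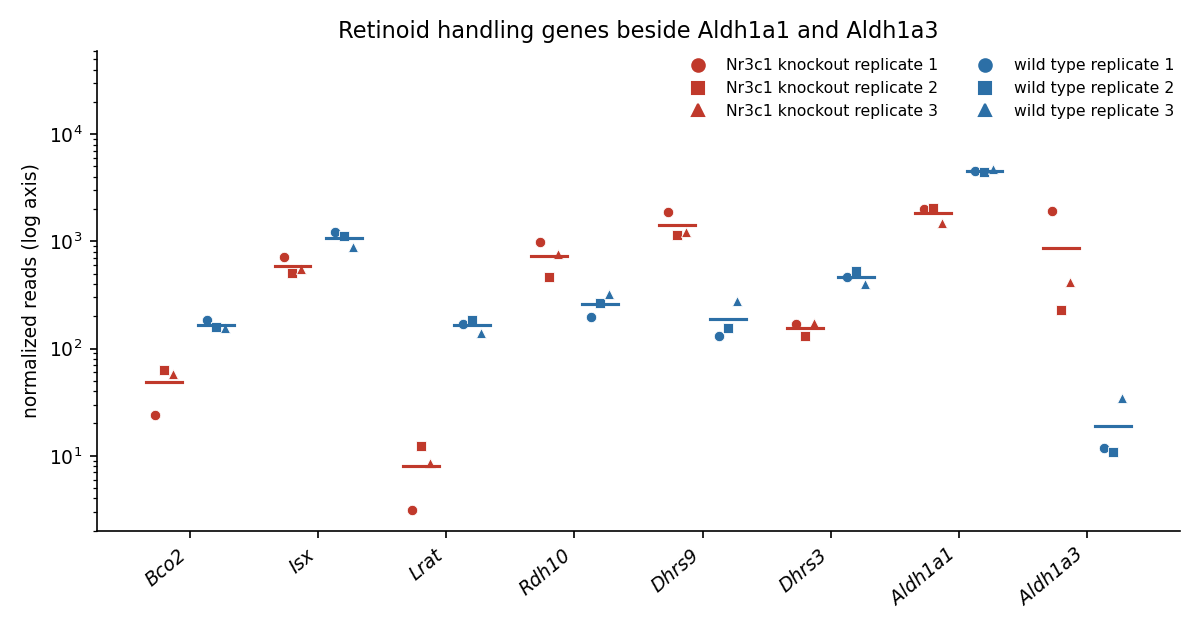
Normalized reads (log axis) per library for 6 genes of retinoid handling and for Aldh1a1 and Aldh1a3, with knockout in red and wild type in blue and group means as bars. All 6 were past the threshold, and Rdh10, Bco2 and Isx were chosen after their values were seen. In the whole retinoid list 12 of 23 tested genes were not past it. Rdh10, Dhrs9 and Aldh1a3 are higher in all 3 knockout libraries, and Bco2, Isx, Lrat, Dhrs3 and Aldh1a1 are lower.

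Most tested genes in the list around Aldh6a1 fell. Of 24 tested genes of branched-chain amino acid and propionate breakdown (25 in the list), 16 fell and 1 rose (Ppm1k, a phosphatase of the branched-chain keto acid dehydrogenase), beside 15.4% and 15.0% of all tested genes. The median log2 change was -0.68, against 0.01 over all tested genes. Because the list was chosen with earlier results of these data known, its count and median are a description only. Pcca, a subunit of propionyl-CoA carboxylase, fell to 167.7, 222.5 and 255.9 in knockout, against 792.9, 723.6 and 704.9 in wild type (log2 change -1.80, SE 0.17, limma adjusted p = 0.000708). Its partner Pccb fell to 813 ± 151 in knockout, against 1985.3 ± 152 in wild type (log2 change -1.30, SE 0.15, limma adjusted p = 0.0016). Auh, a hydratase of leucine breakdown, averaged 85.5 ± 1.15 in knockout and 220 ± 47.7 in wild type (log2 change -1.33, limma adjusted p = 0.00324). Hibch and Hibadh, the enzymes just before Aldh6a1 in valine breakdown, were chosen after their values were seen. Hibch fell to 277 ± 44.8 in knockout, against 407 ± 34.6 in wild type (limma adjusted p = 0.0269), and Hibadh was at 594 ± 63.9 in knockout and 754 ± 28.6 in wild type (limma adjusted p = 0.0526). With 1 library left out, 12 to 19 genes of the list fell, and 15 fell in the fit that omits WT3. The number that rose was 1 without KO2 and 0 without KO1, KO3, WT1, WT2 or WT3.

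Around the proline members, genes went both ways. Of 18 tested genes of proline, ornithine and glutamate metabolism (19 in the list), 5 fell and 4 rose, with a median log2 change of -0.12. Over all tested genes 15.4% fell and 15.0% rose. Otc, which uses ornithine for citrulline, fell to 32.5, 21.7 and 20 in knockout, against 451.1, 340.3 and 412.6 in wild type (log2 change -3.99, SE 0.22, limma adjusted p = 0.000135). Oat, which acts on the way from ornithine to pyrroline-5-carboxylate, fell to 1015.8 ± 133 in knockout, against 2050.5 ± 251 in wild type (log2 change -1.01, limma adjusted p = 0.00265). Pepd, which frees proline from dipeptides, rose to 834.8 ± 118 in knockout, against 392.5 ± 5.84 in wild type (log2 change 1.08, limma adjusted p = 0.00149). Ass1, the argininosuccinate synthase, rose to 688 ± 117 in knockout, against 289 ± 43.6 in wild type (log2 change 1.24, limma adjusted p = 0.00235). Prodh, which makes the substrate of Aldh4a1, was chosen after its values were seen. Prodh fell to 88.8 ± 19.4 in knockout, against 201 ± 57.3 in wild type (limma adjusted p = 0.0145). The number that fell was 3 without WT1 or WT2, and 5 without WT3.

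Of 21 tested genes for reactive aldehydes, alcohols and amines (23 in the list), 6 fell and 4 rose, with a median log2 change of -0.12. The shares over all tested genes were 15.4% lower and 15.0% higher. Adh5, the formaldehyde-handling alcohol dehydrogenase, fell to 592.3, 598.1 and 422.0 in knockout, against 1483.8, 1461.9 and 870.6 in wild type (log2 change -1.22, SE 0.23, limma adjusted p = 0.00869). Akr7a5, an aldehyde reductase, averaged 357 ± 58.4 in knockout and 710 ± 126 in wild type (log2 change -0.99, limma adjusted p = 0.00658). Glo1, which clears methylglyoxal, rose to 2597.5 ± 512 in knockout, against 1384.4 ± 161 in wild type (log2 change 0.90, limma adjusted p = 0.00663). Esd, the partner of Adh5 in formaldehyde oxidation, rose to 3140.5 ± 391.7 in knockout, against 2087.1 ± 87.5 in wild type (log2 change 0.58, limma adjusted p = 0.0113, and 0.0542 without WT2). Without WT1, 2 genes of the list fell. Without WT2, 2 fell and 1 rose. Without WT3, 4 fell and 3 rose.

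Fatty aldehyde and sphingolipid genes, the surroundings of Aldh3a2, gave 5 falls and 1 rise among 12, all tested, with a median log2 change of -0.41. Falls made up 15.4% of all tested genes and rises 15.0%. Agmo, which releases fatty aldehydes from ether lipids, fell to 10.5, 23.8 and 17.2 in knockout, against 78.5, 68.4 and 69.2 in wild type (log2 change -2.08, SE 0.31, limma adjusted p = 0.00376). Phyh, of phytanic acid breakdown, fell to 841 ± 268 in knockout, against 2311.8 ± 405 in wild type (log2 change -1.50, limma adjusted p = 0.0057). Agps, of ether lipid synthesis, rose to 1470.6 ± 189 in knockout, against 900 ± 142 in wild type (log2 change 0.71, limma adjusted p = 0.0123). Sgpp1, a sphingosine phosphate phosphatase, averaged 259 ± 15.4 in knockout and 373 ± 53.9 in wild type (log2 change -0.52, limma adjusted p = 0.0282). Its call was lost without KO3, WT2 and WT3 (limma adjusted p = 0.0704, 0.102 and 0.0578). The falls numbered 3 without KO3 or WT1, and 2 without WT2 or WT3.

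In the list for lysine, choline and carnitine, which holds the neighbours of Aldh7a1 and Aldh9a1, 9 of 14 genes were tested and 1 fell. Among all tested genes 15.4% fell. Sardh, the mitochondrial sarcosine dehydrogenase, fell to 3.1, 10.3 and 10.5 in knockout, against 157.1, 131.0 and 125.7 in wild type (log2 change -4.09, SE 0.41, limma adjusted p = 0.000958). Gcdh, of lysine breakdown, had means of 308 ± 49.2 in knockout and 413 ± 47.3 in wild type (limma adjusted p = 0.0709, and 0.0399 without KO2). Chdh, which oxidises choline, had 1220.2 ± 332 in knockout and 1643.2 ± 137 in wild type (limma adjusted p = 0.106, and 0.032 without KO3). Crym, of the lysine pathway, had 12.7 ± 2.99 in knockout and 23.7 ± 8.10 in wild type (limma adjusted p = 0.119). The falls numbered 2 without KO2 or KO3, and 1 in the fit that omits WT3.

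**Figure D5:**
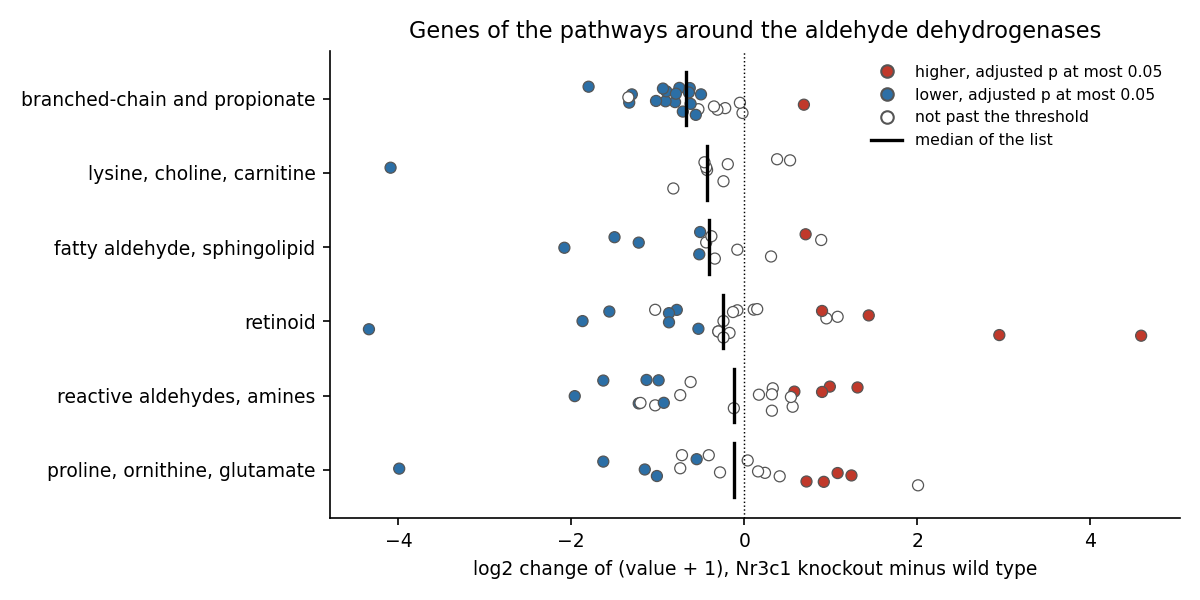
Log2 change (knockout minus wild type) of each tested gene in 6 pathway lists, with red for genes past the threshold and higher, blue for those past it and lower, open points for the rest and a black bar at each list's median. The branched-chain and propionate list, with a median of -0.68, holds 16 blue points and 1 red point.

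The genes most like Aldh1a1 over the 6 libraries were Ociad2, Adk, Ap1ar, Mgll and Ppa2. Likeness is the root mean square difference of log2 profiles, each centred on its own mean, and was 0.105, 0.140, 0.181, 0.183 and 0.184. Ociad2 was closest, with 925.6, 1027.5 and 787.6 in knockout and 2319.1, 2596.2 and 2452.6 in wild type.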

How the data were processed

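Messenger RNA of 6 libraries (non-stranded TruSeq kit, per the labels' protocols) was summarised by the authors. The submitters' processing notes list FastQC, TopHat, DESeq2 and mm10 with neither versions nor order. No source used here names the read counter. The deposited values are a normalized signal, gene counts divided by 1 size factor per library. In each library 100% of values were whole multiples of the value of 1 read (within 0.001), which gave back whole reads, and 0 columns of other samples were present. Of 23725 Entrez numbers 23666 matched a symbol in the reference tables. Exon lengths and 50-base words are from GENCODE M21 transcripts of GRCm38.

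The main fit was limma 3.58.1 (R 4.3.3) with an intensity trend on log2(value + 1), which understates the change of low genes, for genes with at least 10 in at least 3 libraries, with Benjamini-Hochberg adjustment over 12837 genes and a threshold of 0.05. Alternatives were pseudocounts of 0.5 and 5, no filter, a filter at 50, TMM and quantile scaling, 2 count tests on those whole reads (edgeR 4.0.16, DESeq2 1.42.0), and dropping each library in turn. Fits without a library tested the same genes. They called 953 to 1825 genes lower and 970 to 1782 higher, against 1979 and 1931 in the main fit. The steps were tested on simulated data. Replicates all differed beyond sampling noise (chi-square divided by its degrees of freedom, 15.0 to 57.5). Replicate numbers follow accession order and pair nothing. P-values set a difference between the groups against the spread between these libraries, which may in part be technical.

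The members and lists were chosen with earlier results of these data known. All Aldh genes, the 4 genes of each pathway list with the smallest adjusted p, and the 5 genes most like Aldh1a1 with a mean of at least 500 were named by rule, except for a few that are not reported here.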

Additional observations from a re-analysis of the deposited data

How the results depend on the processing

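The members called were 5 lower and 1 higher with every other pseudocount, filter, scaling and tool tried. With 1 library left out they were 2 to 4 lower and 1 to 1 higher. Among the other Aldh genes, 1 to 5 were lower and 0 to 2 higher with 1 library left out, and quantile normalization gave 4 lower and 0 higher, against 5 and 1. The pathway genes, each counted once, were 40 lower and 14 higher of 106 tested, beside 15.4% and 15.0% of all tested genes. With 1 library left out they were 26 to 48 lower and 8 to 14 higher. Among the Aldh genes and those named by rule, 2 changed direction. Aldh16a1 went to -0.02 with quantile normalization and to -0.05 without KO2, and Aldh18a1 to -0.06 without KO1 and -0.03 without WT3, within leave-one-out ranges of -0.06 to 0.2 for Aldh18a1 and -0.05 to 0.09 for Aldh16a1. Counts of all called genes ranged from 1923 (without WT1) to 4164 (DESeq2), against 3910, and the median log2 change of all genes stayed between -0.009 and 0.03. The cause of these shifts was not tested. Depth limits Aldh1a2, Aldh3a1 and Aldh8a1, with 2 to 32 reads in the knockout libraries together.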
